A study of Rattus norvegicus with 35 samples.

Results

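Liver microRNAs (miRNAs) were compared between rats given ketoconazole at the high dose, 100 mg/kg per day, and rats given the middle dose, 30 mg/kg per day, within each of 3 durations of dosing, 3, 7 and 14 days. The animals were 6-week-old male rats of the Sprague-Dawley stock that received the drug orally, and liver was collected 24 h following the final dose. Each dose had 3 libraries per day, so the comparison used 18 of the 35 libraries of the study, 9 of the high dose and 9 of the middle dose. The other 17 libraries, from rats given the low dose of 10 mg/kg or the vehicle, 0.5% methylcellulose, entered no test of the main fit. They are used to describe levels and in an alternative fit of all 35 libraries. Every one of the 763 miRNAs in the count table was a member. Of these, 181 had no read in any of the 18 libraries and 307 passed the filter on low counts and were tested.

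A miRNA is a short RNA that pairs with messenger RNAs, mainly through its seed, bases 2 to 8, and represses them. It is cut from a hairpin with a left (5p) and a right (3p) arm, of which one is usually kept in the silencing complex and the other, the passenger, is mostly degraded. miRNAs with the same seed form a family with overlapping targets. Ketoconazole is an azole antifungal that blocks a cytochrome P450 step of sterol synthesis and is known for liver toxicity. The liver is rich in miR-122 and miR-192, which mark hepatocytes. The contrast asks what the step between the 2 upper doses adds to the liver miRNA profile.

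The sequences below are those the results turn on, from RefSeq (GRCr8 table), with the seed in capitals. Sequences were matched for 274 of the 307 tested miRNAs, and miR-99a-5p and both arms of miR-802 were among those not matched. The first set shares one seed, and each of its members shown here was lower at the high dose.
miR-125b-5p: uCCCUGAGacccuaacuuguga
miR-125a-5p: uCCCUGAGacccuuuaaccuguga
miR-351-5p: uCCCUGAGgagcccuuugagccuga
The second pair carries the seed of the miR-99/100 family and was also lower.
miR-99b-5p: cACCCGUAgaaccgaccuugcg
miR-100-5p: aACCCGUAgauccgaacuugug
The third set holds miRNAs that were higher. miR-107-3p and miR-103-3p share a seed and are 1 edit apart over their whole length.
miR-107-3p: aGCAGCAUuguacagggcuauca
miR-103-3p: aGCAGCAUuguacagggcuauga
miR-340-5p: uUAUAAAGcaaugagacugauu
The last set shares a seed, but its members moved in different directions.
miR-15b-5p: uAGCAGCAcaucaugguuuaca
miR-497-5p: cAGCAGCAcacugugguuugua
miR-322-5p: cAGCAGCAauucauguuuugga

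Total counts ran between 2665943 and 4749001 in the high dose libraries and between 2988801 and 9665416 in the middle dose libraries. The largest belong to replicates 2 and 3 of the middle dose on day 14, each summed over 2 runs. Whether replicates are separate rats is not stated in the labels, and p-values then reflect only how far these samples spread, which may be technical. The 18 libraries were not separated by dose on the first principal component, which carried 23.6% of the variance. On the second, with 16.6%, the high dose libraries lay between -3.80 and 0.35 and the middle dose libraries between -1.69 and 5.199. Farthest out were 3 middle dose libraries, replicate 3 of day 3 at 4.73, replicate 1 of day 7 at 5.19 and replicate 2 of day 14 at 5.199, and counts are given below with and without these 3 libraries. No label or header names a sequencing batch.

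Averaged over the 3 days, livers of the high dose had more of miR-802-3p, miR-340-5p and the sister miRNAs miR-107-3p and miR-103-3p, and less of miR-125b-5p, miR-125a-5p, miR-99a-5p and miR-145-3p, than livers of the middle dose. In edgeR (quasi-likelihood fit, p-values adjusted by the Benjamini-Hochberg method), 57 of the 307 miRNAs passed an adjusted p of 0.05, which is 18.6% of those tested. Of these, 30 (9.77% of those tested) were higher and 27 (8.79%) lower at the high dose. Most changes were small, and 1 of the 57 reached 2-fold. miR-802-3p, miR-340-5p, miR-107-3p, miR-103-3p, miR-125b-5p, miR-125a-5p, miR-99a-5p and miR-145-3p were the 8 of the 57 that passed under each alternative setting tried, including each library left out in turn. Without the 3 outlying middle dose libraries 22 miRNAs passed, 13 higher and 9 lower, and 21 of them were among the 57. The second component partly follows dose, and this choice takes 1 middle dose library from each day. How far this choice by itself lowered the number of calls was not tested. A call lost this way does not show that the miRNA was unchanged. Without day 3, 10 passed. The tissue was profiled in bulk, so fewer cells of a type and less RNA per cell cannot be told apart.

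**Figure D1:**
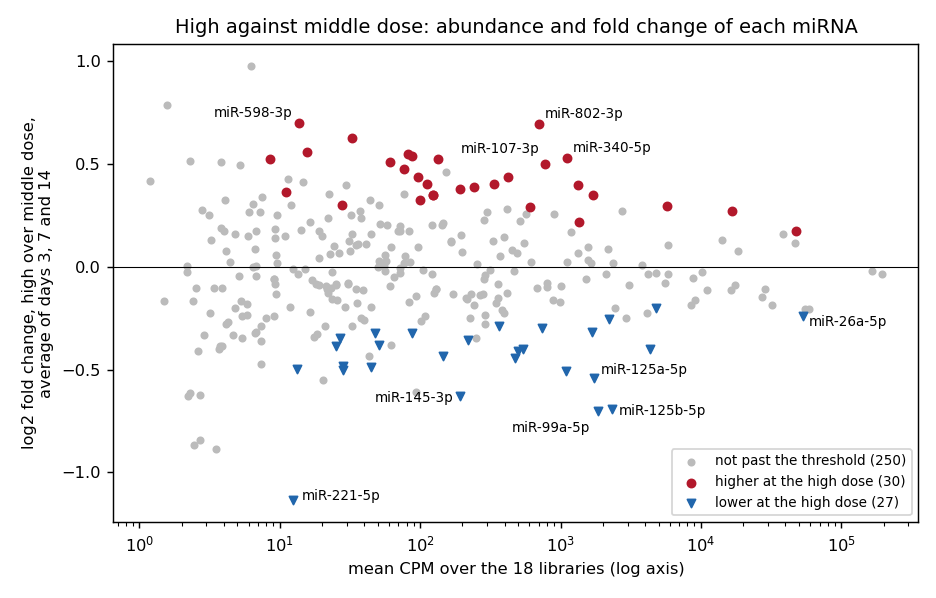
Each point is 1 of the 307 tested miRNAs, placed by its mean CPM over the 18 libraries (log axis) and by its log2 fold change, high over middle dose, averaged over days. Circles in red mark the 30 that were higher at the high dose, triangles in blue the 27 that were lower, both at an adjusted p of 0.05, and the called changes lie mostly within 1 log2 unit of 0.

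Levels below are CPM, counts scaled to a common library size after TMM adjustment, in the order of replicates 1 to 3, and changes are log2 fold changes of high over middle dose with the standard error (SE) of the fit, over 9 high and 9 middle dose libraries for the average. Among the falls, miR-125b-5p, a relative of the worm timing miRNA lin-4, had 1698, 1716 and 1826 CPM in high dose livers against 2815, 2604 and 3345 CPM in middle dose livers on day 3. On day 7 it had 2117, 1636 and 1544 CPM at the high dose against 2629, 2514 and 2001 CPM at the middle dose. On day 14 it had 1674, 1803 and 1922 CPM at the high dose against 3318, 3965 and 2776 CPM at the middle dose. The groups stood apart on days 3 and 14, and on day 7 the highest high dose library lay inside the middle dose range. Its average change was -0.69 ± 0.09 (adjusted p = 6.65e-05), the smallest adjusted p of the comparison.

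miR-125a-5p, which has the same seed, had 1320, 1367 and 1434 CPM at the high dose against 2102, 1819 and 2480 CPM at the middle dose on day 3. The day 7 values were 1341, 1369 and 1323 CPM at the high dose against 2170, 1992 and 1570 CPM at the middle dose. The day 14 values were 1376, 1599 and 1524 CPM at the high dose against 1806, 2717 and 1778 CPM at the middle dose. The groups did not overlap on any of the 3 days. Over all 307 tested, 13 miRNAs had groups apart on all 3 days, and 12 of them were among the 57. The average change was -0.54 ± 0.09. miR-351-5p, a rodent miRNA with the third copy of this seed, was lower by a smaller amount, -0.40 ± 0.09.

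miR-99a-5p belongs to the miR-99/100 family, known to repress the growth kinase mTOR. On day 3 it had 1436, 1451 and 1485 CPM at the high dose against 2271, 2006 and 2530 CPM at the middle dose. On day 14 it had 1350, 1244 and 1438 CPM at the high dose against 2785, 3187 and 2125 CPM at the middle dose, and on both days every high dose library lay below every middle dose library. On day 7 the groups overlapped, with 1777, 1287 and 1196 CPM at the high dose against 2213, 2039 and 1617 CPM at the middle dose. The average change was -0.70 ± 0.09. Of the 5 tested members of the miR-99/100 list, 3 were lower (miR-99a-5p, miR-100-5p at -0.51 ± 0.13 and miR-99b-5p at -0.40 ± 0.10) and 1 was higher, the passenger arm miR-99a-3p at 0.40 ± 0.12. The median change of the list was -0.40, beside -0.03 over all tested miRNAs. Without the 3 outlying libraries miR-100-5p, miR-99b-5p and miR-99a-3p did not pass, at -0.37, -0.27 and 0.25.

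Some hairpins of these families lie close to each other or to let-7 hairpins in the rat genome. In the GRCr8 annotation Mir99b, Mirlet7e and Mir125a are neighbours within 10 kb of each other, as are Mir99a and Mirlet7c1. Mir351 lies apart from these, in a cluster with Mir322 and Mir503. let-7e-5p, which lies between miR-99b and miR-125a, changed by -0.23 ± 0.09 and did not pass (adjusted p = 0.0736). On day 14 it had 263, 275 and 294 CPM at the high dose against 264, 307 and 313 CPM at the middle dose, which overlap. let-7c-5p, beside miR-99a, did not pass either (adjusted p = 0.0881). Reads of let-7e-5p, let-7c-5p and let-7a-5p are hard to tell apart, as these are 1 or 2 edits from each other.

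miR-145-3p is the minor arm of a hairpin known for smooth muscle and stellate cells. It had 153, 160 and 153.9 CPM at the high dose against 210, 224 and 281 CPM at the middle dose on day 3. On day 14 it had 139, 144 and 123 CPM at the high dose against 260, 299.1 and 210 CPM at the middle dose. High dose libraries were lower throughout on both days, and overlapped the middle dose on day 7. The average change was -0.63 ± 0.10, while its partner arm miR-145-5p (adjusted p = 0.142) and its genomic neighbour miR-143-3p (adjusted p = 0.154) did not pass.

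miR-221-5p had the largest average fall of the miRNAs named, -1.14 ± 0.32, but it was scarce and spread widely. It had 9.02, 4.77 and 7.00 CPM at the high dose against 40.7, 5.49 and 11.1 CPM at the middle dose on day 7, so 1 middle dose library stood far above the rest. Without the 3 outlying libraries, of which that is one, its change was -0.54 and did not pass. The other named falls were smaller. miR-96-5p, of the sterol-linked miR-183 cluster, was lower by -0.48 ± 0.17, miR-30e-3p by -0.44 ± 0.11, miR-676 by -0.43 ± 0.11 and miR-30a-3p by -0.41 ± 0.10, and none of these 4 passed without the 3 outlying libraries.

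Among the rises, miR-802-3p comes from a hairpin known from mouse liver to affect glucose metabolism. On day 3 it had 948, 783 and 764 CPM in high dose livers against 401, 585 and 445 CPM in middle dose livers. On day 7 it had 804, 813 and 870 CPM at the high dose against 442, 592 and 559 CPM at the middle dose. At day 14 the levels were 991, 957 and 875 CPM at the high dose against 809, 600 and 417 CPM at the middle dose. Every high dose library was above every middle dose library of its day, and the average change was 0.69 ± 0.11 (adjusted p = 0.000466). The other arm, miR-802-5p, was also higher, by 0.40 ± 0.09.

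miR-340-5p had 1278, 1395 and 1160 CPM at the high dose against 789, 1080 and 840 CPM at the middle dose on day 3. The day 7 values were 1347, 1346 and 1327 CPM at the high dose against 778, 954 and 952 CPM at the middle dose. The day 14 values were 1360, 1274 and 1271 CPM at the high dose against 1065, 748 and 962 CPM at the middle dose. The groups stood apart on all 3 days and the change hardly differed between them, at 0.50, 0.58 and 0.49. Its average was 0.53 ± 0.08.

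miR-107-3p, a regulator of insulin sensitivity in mice, had 980, 806 and 778 CPM at the high dose against 530, 717 and 484 CPM at the middle dose on day 3. It had 901, 839 and 927 CPM at the high dose against 484, 716 and 678 CPM at the middle dose on day 7. At day 14 the levels were 933, 1015 and 1007 CPM at the high dose against 846, 661 and 693 CPM at the middle dose. The groups stood apart on each day, and the average change was 0.50 ± 0.09. miR-103-3p was higher by 0.35 ± 0.07. How reads that fit both miRNAs were assigned is not given in the sources used here, so their separate values are uncertain.

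The remaining named rises were miR-598-3p at 0.70 ± 0.18, miR-31a-3p at 0.54 ± 0.11, miR-455-5p at 0.52 ± 0.15, let-7f-2-3p at 0.51 ± 0.12, miR-190a-5p at 0.47 ± 0.10, miR-106b-5p at 0.43 ± 0.10 and miR-532-5p at 0.43 ± 0.10. miR-598-3p was scarce, with 29.4, 15.8 and 14.8 CPM at the high dose against 9.24, 12.6 and 9.20 CPM at the middle dose on day 3. miR-532-5p, from a miRNA cluster that also holds miR-501, stood apart on all 3 days, while miR-501-3p was lower by -0.50 ± 0.12 and did not pass without the 3 outlying libraries (adjusted p = 0.0617). Of the 7 rises in this group, miR-455-5p alone did not pass without the 3 outlying libraries.

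**Figure D2:**
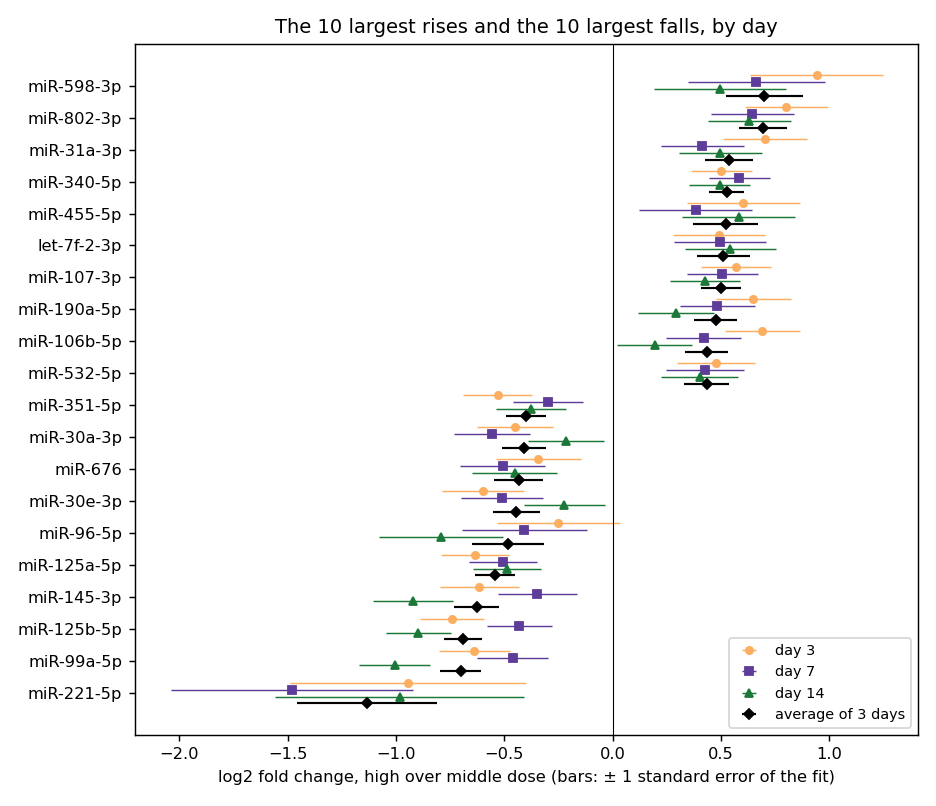
Log2 fold change of high over middle dose for the 20 miRNAs named in the average, with points for days 3, 7 and 14 (3 against 3 libraries each), a black diamond for the average and bars of 1 SE of the fit. Signs were the same on all 3 days for each of the 20, but the naming rule selected for this, so it is no separate support. miR-221-5p has the widest bars.

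Seed groups were formed from the 274 tested miRNAs with a matched sequence, and only groups with at least 1 call were examined. Some of these moved together and others did not. Their counts stand beside 9.77% higher and 8.79% lower over all tested miRNAs. Whether families moved together more often than unrelated miRNAs was not tested. All 3 matched miRNAs with the seed CCCUGAG were lower, as were both with ACCCGUA, and both with GCAGCAU were higher. miR-99a-5p, of the miR-99/100 family and also lower, was not matched and is not counted with ACCCGUA. Of the 4 with AAAGUGC, the seed of the miR-17 family that promotes cell division, 3 were higher: miR-106b-5p, miR-20a-5p at 0.39 ± 0.12 and miR-93-5p at 0.29 ± 0.07. miR-101b-3p and miR-101a-3p, both with ACAGUAC, were higher by 0.27 ± 0.07 and 0.29 ± 0.08, but are 1 edit apart and may share reads. Without the 3 outlying libraries miR-20a-5p (adjusted p = 0.161), miR-93-5p (0.0676), miR-101a-3p (0.0789) and miR-101b-3p (0.0642) did not pass. Of the 5 matched miRNAs with AGCAGCA, 1 was higher (miR-15b-5p at 0.32 ± 0.09) and 2 were lower (miR-497-5p at -0.30 ± 0.07 and miR-322-5p at -0.29 ± 0.08). The tested family member miR-15a-5p is not among these 5, and it did not pass.

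Counts by family list are read against the 9.77% higher and 8.79% lower over all tested, and several lie near those shares. The let-7 list had 5 of 20 tested members higher and none lower, and all 5 were 3p passenger arms: let-7g-3p at 0.52 ± 0.11, let-7f-2-3p, let-7f-1-3p at 0.30 ± 0.08, and let-7a-1-3p and let-7c-2-3p at 0.35 ± 0.09. The last 2 have the same sequence and the same counts in all 18 libraries, so they are 1 measurement. let-7g-3p and let-7f-2-3p passed without the 3 outlying libraries, and the other 3 did not. The median of the let-7 list was 0.02, beside -0.03 over all tested. In the miR-17/92 list of 17, 3 members were higher and 1, miR-92b-3p at -0.50 ± 0.13, was lower, with a median of 0.17. In the miR-30 list of 11, 3 members were lower and all were 3p arms: miR-30e-3p, miR-30a-3p and miR-30b-3p at -0.39 ± 0.12. The miR-15/16 list of 10 had 2 higher, both arms of miR-15b, and 2 lower. The miR-125 list of 5 had 2 lower. The p53 list of 7 had 1 higher, miR-34a-5p, and 1 lower, miR-194-5p at -0.20 ± 0.06. Of these lists' members, miR-106b-5p, miR-15b-5p, miR-497-5p, miR-322-5p, miR-125b-5p and miR-125a-5p passed without the 3 outlying libraries, whereas miR-92b-3p, miR-15b-3p, miR-34a-5p, miR-194-5p and the 3 miR-30 members did not.

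One member was lower in each of 4 more lists: miR-96-5p of 5 sterol-linked, miR-221-5p of 3 in the list of miR-221 and miR-222, miR-181d-5p (-0.32 ± 0.10) of 8 in miR-181, and miR-24-2-5p (-0.32 ± 0.09) of 9 in miR-23/24/27. None of these 4 passed without the 3 outlying libraries. No tested member passed in the average in the lists for miR-10 (3 tested), inflammation (7), miR-29 (5), miR-193 and miR-365 (4), miR-210 (2), rodent miR-466 (6) or miR-130 and miR-301 (3). The same held for the imprinted Dlk1-Dio3 cluster, of whose 90 listed miRNAs only 9 were abundant enough to test. On day 3 all 9 had a negative sign, with a median of -0.82 beside -0.02 over all tested. As members of 1 cluster, the 9 may not be independent. The summed level of the list on day 3 was 109 to 213 CPM at the high dose against 135 to 353 CPM at the middle dose, which overlap. On days 7 and 14, 6 and 4 of the 9 had a positive sign, with medians of 0.06 and -0.24. None of the 9 passed on any single day.

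Both arms of a hairpin were tested for 85 hairpins, and the difference between arms was not tested. Both arms passed for 3 hairpins. Of all 307 tested miRNAs 18.6% passed in the average. That share is for single miRNAs, and pairs in which both pass would be rarer if arms were unrelated. Whether arms of a hairpin passed together more often than unrelated miRNAs was not tested. Both arms of miR-802 and of miR-15b were higher, whereas miR-99a-5p was lower and miR-99a-3p higher. miR-99a-3p had 102, 122 and 109 CPM at the high dose against 85.6, 107 and 74.2 CPM at the middle dose on day 3, so its groups overlapped where those of its partner did not. One arm passed for 26 hairpins, in 10 of which the other arm had the opposite sign. For miR-30a it was the passenger arm that was lower, whereas the major arm miR-30a-5p did not pass (adjusted p = 0.0503). For miR-22 it was the minor arm, miR-22-5p at 0.38 ± 0.11, with 193.6 CPM on average beside 194472 CPM for miR-22-3p (adjusted p = 0.641). miR-99a-3p, miR-15b-3p, miR-30a-3p and miR-22-5p did not pass without the 3 outlying libraries.

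Day 3 gave the most calls of any single day, with 20 miRNAs past the threshold, 6.51% of those tested, 9 (2.93%) higher and 11 (3.58%) lower at the high dose. On the high dose side were miR-582-3p, miR-331-3p and miR-15b-5p, and on the lower side the immune cell miRNAs miR-342-3p and miR-155-5p with the abundant miR-21-5p and miR-26a-5p. miR-331-3p had 117, 125 and 151 CPM at the high dose against 37.5, 78.4 and 39.9 CPM at the middle dose, and the groups stood apart. Its change was 1.34 ± 0.32 on 3 against 3 libraries (adjusted p = 0.0251). miR-582-3p changed by 1.60 ± 0.46, with 37.7, 142 and 69.8 CPM at the high dose against 29.9, 34.0 and 18.4 CPM at the middle dose, so 1 high dose library set much of its mean. miR-15b-5p, of the miR-15/16 family that restrains the cell cycle, changed by 0.74 ± 0.15, with 172, 128 and 153.9 CPM at the high dose against 97.6, 89.0 and 85.9 CPM at the middle dose. miR-802-3p, miR-31a-3p and miR-106b-5p were higher by 0.80 ± 0.19, 0.70 ± 0.19 and 0.69 ± 0.17.

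miR-342-3p, abundant in lymphocytes, had 32.8, 31.8 and 31.2 CPM at the high dose against 71.2, 47.5 and 63.5 CPM at the middle dose on day 3, a change of -0.93 ± 0.18 (edgeR adjusted p = 0.0101). miR-155-5p, induced in activated immune cells, had 9.29, 14.5 and 12.0 CPM at the high dose against 28.0, 20.2 and 19.9 CPM at the middle dose, a change of -0.93 ± 0.25. In both, each high dose library lay below each middle dose library, but the naming rule used these same values. Both are on the white blood cell marker list. The summed level of that list was 1794 to 1995 CPM at the high dose against 2283 to 3029 CPM at the middle dose on day 3. Of its 10 markers 6 were tested, and these 2 were lower on day 3, beside 3.58% lower over all tested, while the other 4 did not pass. The median of the 6 was -0.44, beside -0.02 over all tested, and none of the 10 was at 0 in all 18 libraries. The part of white blood cells in the day 3 results was not tested.

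miR-21-5p, linked to liver injury and regrowth, had 33658, 51152 and 38286 CPM at the high dose against 64289, 63856 and 69513 CPM at the middle dose on day 3, a change of -0.68 ± 0.18. Its levels overlapped on the later days. On day 7 it had 51072, 61544 and 48090 CPM at the high dose against 49427, 61050 and 46524 CPM at the middle dose. Its average change of -0.20 ± 0.11 did not pass (adjusted p = 0.174). miR-26a-5p, a growth-restraining miRNA of hepatocytes, had 41591, 40859 and 44807 CPM at the high dose against 57459, 54793 and 61610 CPM at the middle dose on day 3, a change of -0.45 ± 0.09. The other falls of day 3 were miR-125b-5p at -0.74 ± 0.15, miR-26b-3p at -0.65 ± 0.16, miR-99a-5p at -0.64 ± 0.16, miR-125a-5p, miR-145-3p, miR-10a-5p at -0.51 ± 0.13 and miR-322-5p at -0.47 ± 0.13.

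The day 3 count depended on single libraries. It was 0 without middle dose replicate 3, 2 without middle dose replicate 1, 39 without middle dose replicate 2, and 7, 11 and 3 without high dose replicates 1, 2 and 3, and 6 without the 3 outlying libraries. Those 6 were miR-15b-5p and miR-106b-5p, which were higher, and miR-342-3p, miR-125b-5p, miR-125a-5p and miR-26a-5p, which were lower. Libraries of the other days held the same signs more often than not. Of the 20 miRNAs called on day 3, 18 had the same sign on day 7 and 16 on day 14, days that share no library with day 3. Over all 307 tested the sign was shared by 73.3% between days 3 and 7 and by 70.4% between days 3 and 14.

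**Figure D3:**
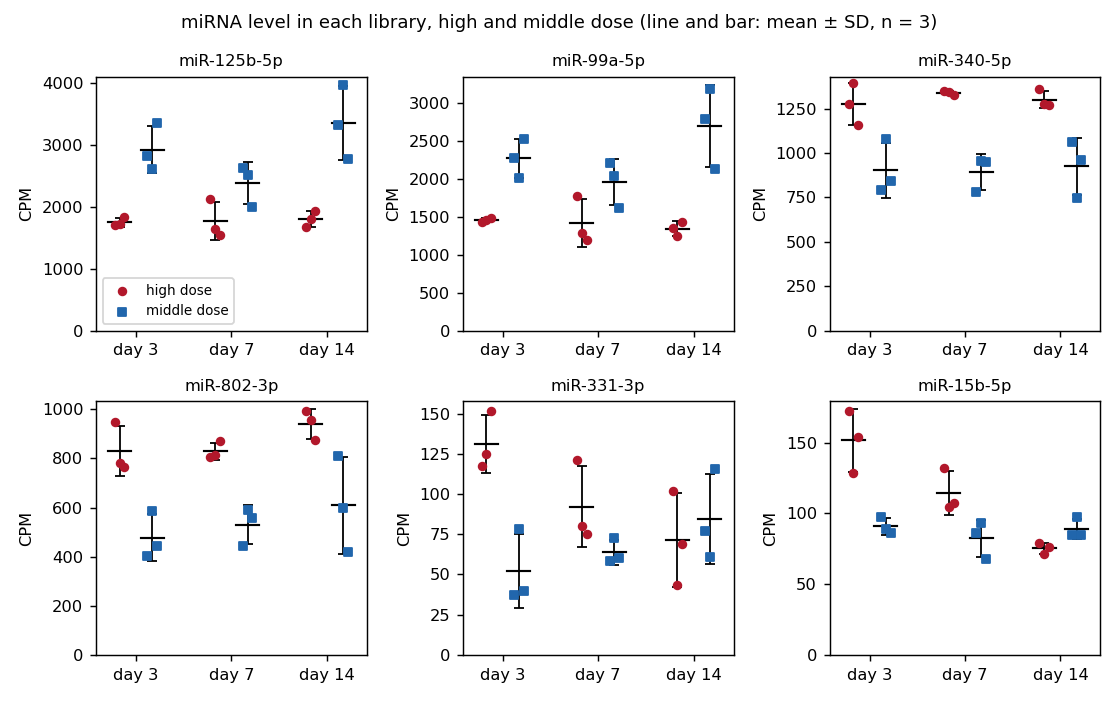
CPM of 6 miRNAs in each of the 18 libraries (circles high dose, squares middle dose), with the mean and SD of the 3 libraries of each group. miR-340-5p and miR-802-3p lie higher at the high dose on all 3 days, miR-125b-5p and miR-99a-5p lie lower with some overlap on day 7, and miR-331-3p and miR-15b-5p lie higher on day 3 but not on day 14.

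On day 7 no miRNA passed the threshold (0 of 307, 0%). By edgeR 50 had an unadjusted p below 0.05, and DESeq2 gave 0 calls. The smallest adjusted p was 0.0900, shared by let-7g-3p at 0.85 ± 0.20 and miR-340-5p at 0.58 ± 0.14, followed by miR-92b-3p at -0.77 ± 0.22 (adjusted p = 0.209). let-7g-3p was scarce, with 12.4, 9.08 and 9.34 CPM at the high dose against 5.59, 4.80 and 6.61 CPM at the middle dose. In these 3 miRNAs the groups did not overlap. They were picked by their p-values from the same libraries, so this separation is no separate support. A missed threshold with 3 libraries a group does not show that the doses acted alike on this day.

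On day 14, 4 miRNAs passed, 1.3% of those tested, and all 4 were lower at the high dose: miR-99a-5p at -1.01 ± 0.16, miR-100-5p at -0.95 ± 0.23, miR-145-3p at -0.92 ± 0.18 and miR-125b-5p at -0.90 ± 0.15. Their adjusted p-values by edgeR were 0.00163, 0.0403, 0.00827 and 0.00163. miR-100-5p had 685, 676 and 687 CPM at the high dose against 1161, 1643 and 1160 CPM at the middle dose, and the other 3 are given above. In all 4 every high dose library lay below every middle dose library. As these 4 were picked by their p-values, that separation is no separate support. miR-99a-5p and miR-125b-5p passed under each alternative tried, while miR-100-5p failed without any of 4 single libraries of that day and miR-145-3p failed without high dose replicate 3. With the 3 outlying libraries left out, 3 passed, and miR-100-5p did not (-0.80, adjusted p = 0.177). The count was 2 without high dose replicate 3, 7 without middle dose replicate 1 and 15 without middle dose replicate 3, of which 0, 1 and 2 were higher at the high dose. DESeq2 gave 17 calls, 7 higher and 10 lower, so the single direction depended on the tool.

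**Figure D4:**
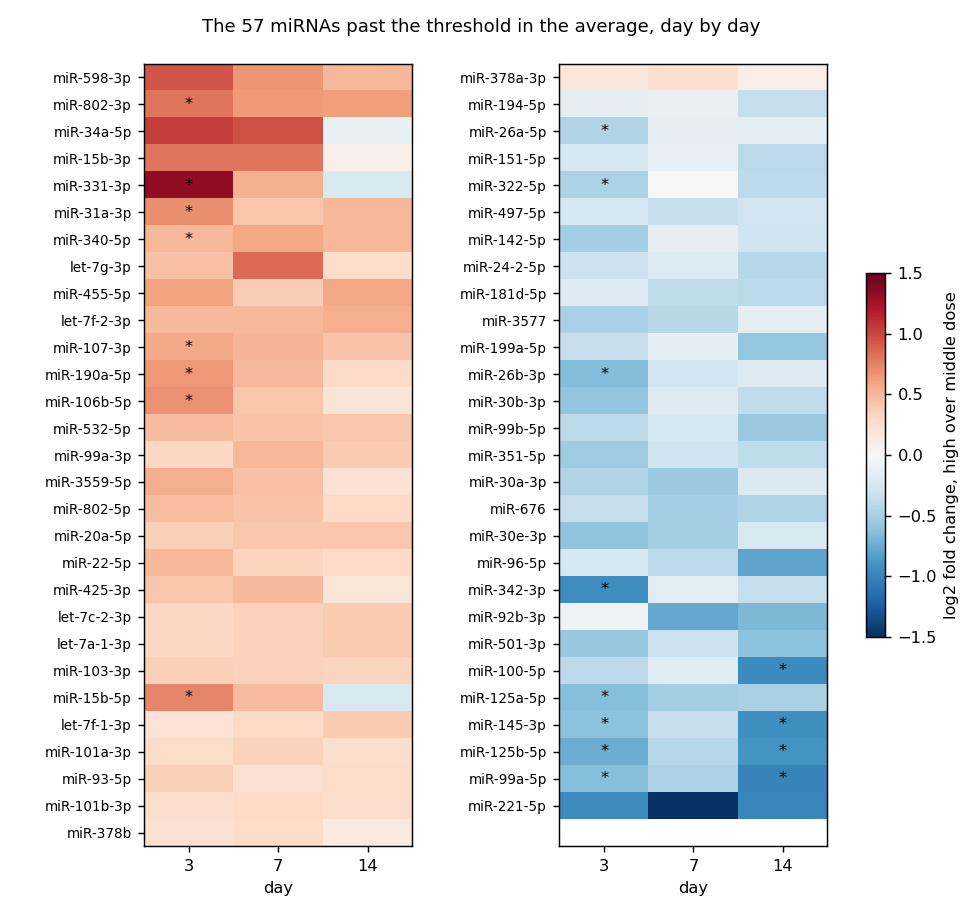
Log2 fold change of high over middle dose on each day (columns) for the 57 miRNAs past the threshold in the average (rows, largest rise at the top left), with stars where the single day passed. Stars fall on day 3 and day 14 and none on day 7, and 40 of the 57 have no star.

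The difference between days was tested directly. The change on day 14 minus that on day 3 passed for 3 of 307 miRNAs, 0.977%, and all 3 were lower on day 14: miR-15b-5p at -0.98 ± 0.22, miR-582-3p at -3.003 ± 0.65 and miR-582-5p at -3.08 ± 0.65, each with an edgeR adjusted p of 0.0298. miR-15b-5p had 79.0, 71.0 and 76.1 CPM at the high dose against 84.8, 97.3 and 84.8 CPM at the middle dose on day 14, so the groups stood apart in the direction opposite to day 3. The change on day 7 minus that on day 3 gave 0 calls (13 at an unadjusted p below 0.05), with the smallest p-values for miR-342-3p at 0.75 ± 0.26, miR-21-5p at 0.72 ± 0.26 and miR-582-3p at -1.80 ± 0.64. Day 14 minus day 7 also gave 0 calls (16 at an unadjusted p below 0.05), led by miR-15b-5p at -0.71 ± 0.22, miR-582-5p at -2.01 ± 0.66 and miR-130a-3p at -0.51 ± 0.19. DESeq2 gave 0 calls in both of these. Without the 3 outlying libraries none of the 3 miRNAs passed for day 14 minus day 3.

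For miR-34a-5p, which p53 induces, the change on day 14 minus that on day 3 did not pass (adjusted p = 0.682). It had 68.5, 34.6 and 52.5 CPM at the high dose against 27.5, 36.8 and 11.3 CPM at the middle dose on day 3. On day 7 it had 51.2, 36.6 and 51.9 CPM at the high dose against 22.3, 16.8 and 32.7 CPM at the middle dose. On day 14 the levels overlapped, with 16.2, 24.2 and 30.0 CPM at the high dose against 24.7, 20.7 and 29.7 CPM at the middle dose. Its average of 0.63 ± 0.20 passed (adjusted p = 0.0381), but did not without any one of 12 libraries or without the 3 outlying ones. miR-331-3p averaged 0.54 ± 0.18 (adjusted p = 0.0439) and failed without any one of 11 libraries. On day 14 it had 102, 43.7 and 69.1 CPM at the high dose against 77.1, 61.0 and 115 CPM at the middle dose, which overlap.

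The 3 most abundant hepatocyte markers did not pass, while 5 others did. miR-122-5p, a largely hepatocyte-restricted miRNA, had 24565, 22860 and 22889 CPM at the high dose against 32579, 19930 and 30557 CPM at the middle dose on day 3, and averaged -0.15 ± 0.09 (edgeR adjusted p = 0.244). miR-192-5p averaged -0.02 ± 0.06 (adjusted p = 0.812), with a sign that turned under other scaling. Of the 13 tested hepatocyte markers 4 were higher in the average, namely both arms of miR-802 and miR-101a-3p and miR-101b-3p, and 1 was lower, miR-194-5p, beside 9.77% higher and 8.79% lower over all tested. The median of the list was 0.02, beside -0.03 over all tested, and without the 3 outlying libraries the arms of miR-802 passed and the other 3 did not. The summed level of the hepatocyte list was 261324 to 265585 CPM at the high dose against 262052 to 273909 CPM at the middle dose on day 3. On day 7 it was 276441 to 287329 CPM at the high dose against 265061 to 301718 CPM at the middle dose. On day 14 it was 290624 to 302020 CPM at the high dose against 301803 to 359979 CPM at the middle dose, so the ranges barely overlapped. In the white blood cell list 2 of 6 tested were lower in the average, miR-342-3p at -0.49 ± 0.11 and miR-142-5p at -0.32 ± 0.09, and neither passed without the 3 outlying libraries (adjusted p = 0.0564 and 0.0864). In the stellate and smooth muscle list 2 of 7 were lower, miR-145-3p and miR-199a-5p at -0.36 ± 0.09, of which miR-199a-5p did not pass without those libraries (adjusted p = 0.0676). The summed level of this list, mostly miR-143-3p, was 50115 to 57132 CPM at the high dose against 43234 to 54209 CPM at the middle dose on day 14. None passed among 2 tested endothelial, 4 red blood cell, 7 bile duct, 2 muscle, 1 pancreas and endocrine, and 1 nerve markers. miR-1-3p and miR-206-3p of muscle, miR-216b-5p of pancreas and miR-124-3p of nerve were at 0 in all 18 libraries. miR-375-3p, the one tested marker on the pancreas and endocrine list, averaged 284.7 CPM.

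Levels at the lower doses place the 2 upper doses, as a description with no test. On the first principal component of all 35 libraries the vehicle libraries and those of the low dose on days 3 and 14 lay at -14.49 to -4.32, and all others, both upper doses included, at 4.24 to 6.47, so levels across that divide also differ in whatever sets it. miR-340-5p on day 3 averaged 515.6 ± 42.3 CPM with vehicle, 602.5 ± 111.3 at the low dose, 903.3 ± 155.2 at the middle dose and 1278 ± 117 at the high dose (SD, n = 3 each). miR-802-3p averaged 553.8 ± 48.5, 642.1 ± 184.3, 477.2 ± 95.9 and 831.5 ± 101.2 CPM in the same order on that day, so the 3 lower groups overlapped. miR-125a-5p averaged 998.5 ± 213.3, 1102 ± 460, 2134 ± 332 and 1374 ± 57.1 CPM, with its highest mean at the middle dose. miR-125b-5p averaged 3353 ± 756, 3225 ± 746, 2921 ± 381.8 and 1746 ± 69.6 CPM, and miR-15b-5p 185.4 ± 38.8, 167.4 ± 53.5, 90.8 ± 6.09 and 151.5 ± 22.2 CPM.

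**Figure D5:**
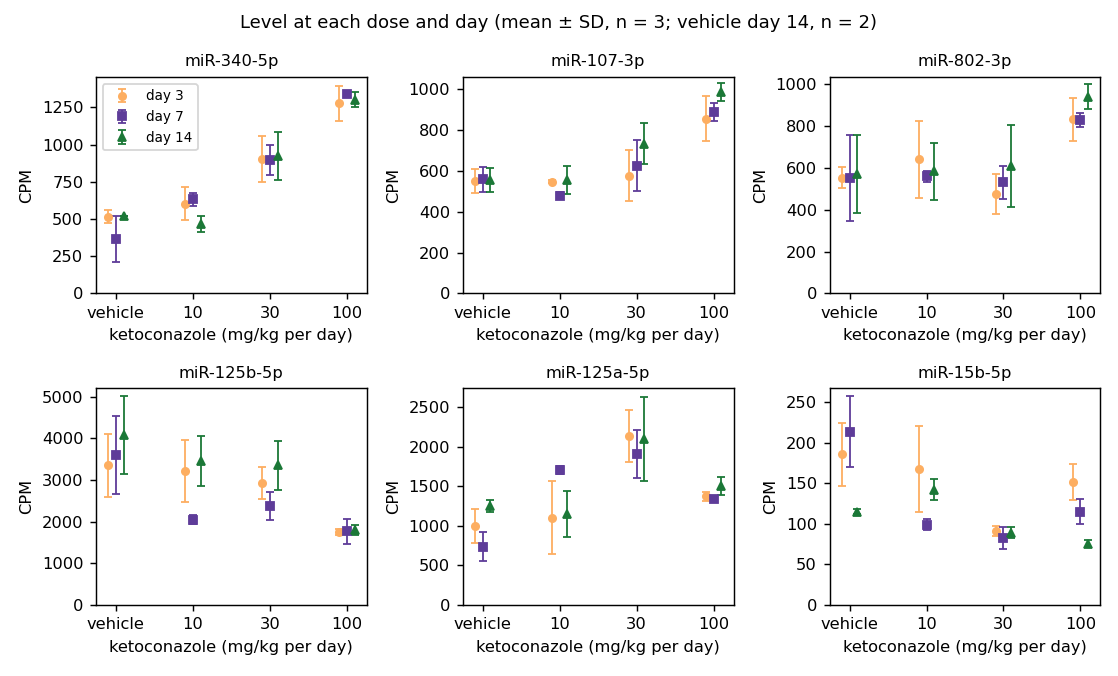
Mean CPM and SD of 6 miRNAs at vehicle, 10, 30 and 100 mg/kg per day of ketoconazole on days 3, 7 and 14, with 3 libraries a group except vehicle on day 14, which had 2. miR-125a-5p has its highest mean at 30 mg/kg on each day, whereas miR-340-5p and miR-107-3p have theirs at 100 mg/kg.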

How the data were processed

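Total RNA from rat liver was made into Illumina TruSeq small RNA libraries, per the labels' protocols. The authors deposited raw read counts per mature miRNA in 37 columns, with no normalization. The genome build was rn6, per the submitters' processing notes. Not given in the sources used here are the aligner, counting program and annotation release. Repeat runs of 2 middle dose libraries were summed. Replicates differed by more than counting noise (median chi-square per degree of freedom 97.0 over 18 pairs, minimum 34.8, against 5.74 and 8.09 between runs), so none was taken as deposited more than once.

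The filter filterByExpr (minimum count 10, minimum total 15) kept 307 of 763 miRNAs, and those left out hold 0.00906% of the counts. After TMM scaling (factors 0.846 to 1.12), edgeR 4.0.16 under R 4.3.3 fitted 1 mean for each of 6 groups and 12 residual degrees of freedom. The 7 contrasts were each day, their average and the 3 differences between days. SE was obtained as |log2 fold change| over the root of the F statistic. The fit used the 18 libraries because the comparison takes no controls, and all 35 libraries were an alternative. Other alternatives were DESeq2 1.42.0, other scalings and filters, a replicate block, either run alone, counts thinned to one depth, single days, averages of 2 days, each library left out, and, chosen after seeing the data, the 3 libraries farthest on the second principal component (log2 CPM, prior count 2) left out. The steps were tested on simulated counts.

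Members, rules and the 28 lists were chosen with earlier results of these data known. Names went to miRNAs that passed, averaged at least 10 CPM and had every high dose library on one side of the middle dose mean of its day: the 10 largest average changes each way and the 6 largest each way on each day. For differences between days they were the 4 largest each way, for contrasts with no call the 3 smallest p-values, and 8 miRNAs were reported whatever their values (let-7e-5p, miR-21-5p, miR-34a-5p, miR-99b-5p, miR-100-5p, miR-122-5p, miR-331-3p and miR-192-5p). The rule also gave up to 4 members of each list by smallest p in the average, of which those that passed are named here. Other called members of lists, seed groups and hairpins, levels shown for single days, and the miRNAs plotted by dose were picked after their values were seen. No molecular identifiers are stated, so counts are of reads. Figures were drawn with matplotlib 3.10.9.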

Additional observations from a re-analysis of the deposited data

Results flagged for a closer look

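For 3 miRNAs the change differed between days by a test of the difference itself. The change of high over middle dose on day 14 minus that on day 3 was -0.98 ± 0.22 for miR-15b-5p, -3.003 ± 0.65 for miR-582-3p and -3.08 ± 0.65 for miR-582-5p (log2, edgeR adjusted p of 0.0298 each). On day 3, miR-582-5p had 5.14, 18.4 and 10.2 CPM at the high dose against 2.18, 6.46 and 4.29 CPM at the middle dose. On day 14 it had 2.06, 3.12 and 4.29 CPM at the high dose against 10.8, 12.8 and 6.41 CPM at the middle dose, so the groups overlapped on day 3 and stood apart on day 14. miR-582-3p had 27.8, 23.4 and 33.9 CPM at the high dose against 84.5, 107 and 34.4 CPM at the middle dose on day 14. The arms come from 1 hairpin and are not independent. Without the 3 libraries farthest on the second principal component the differences were -0.92, -2.50 and -2.90 for miR-15b-5p, miR-582-3p and miR-582-5p, and none passed.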

How the results depend on the processing

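The average gave 57 calls, and single libraries left out gave 45 to 77. It gave 10 without day 3, 36 without day 14, 38 without day 7, and 22 without the 3 libraries farthest on the second component (36 of the 57 were lost). The sign of each of the 57 was the same under every alternative. Day 3 gave 20 calls, 32 with DESeq2, 11 with the 6 libraries of that day alone, 6 without the 3 outlying libraries, and 0 to 39 with single libraries left out. Day 14 gave 4, all lower, 17 with DESeq2 (7 higher and 10 lower), 3 without the 3 outlying libraries, and 2 to 15 with single libraries left out. Day 14 minus day 3 gave 3 calls, 1 under the replicate block, 1 with thinned counts, 0 without the 3 outlying libraries and 0 to 3 with single libraries left out. The other contrasts gave 0 calls throughout. With library size alone as scaling, which put the median of all miRNAs on day 3 at 0.09 against -0.02, 13 of 19 calls were higher on day 3 and 40 of 63 in the average (63.5%, against 52.6%). Replicate numbers did not pair samples: 3 of 9 pairs had a correlation of deviations over 0.1, between -0.14 and 0.25, and 3 of 9 correlated best with their own number. With the number within day as a block, the calls were 17 on day 3, 0 on day 7, 6 on day 14 and 51 in the average.

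Some uncalled values changed sign. The average of miR-192-5p was 0.030 with library size alone, 0.0066 with no filter, 0.031 without day 14, -0.053 to 0.023 with single libraries left out (highest without middle dose day 14 replicate 2) and 0.043 without the 3 outlying libraries. The average of miR-21-5p was 0.035 without day 3. The day 14 value of miR-34a-5p was 0.027 with thinned counts and -0.34 to 0.093 with single libraries left out (above 0 without middle dose replicate 3 or high dose replicate 1), and that of miR-331-3p was -0.61 to 0.060 with single libraries left out (above 0 without middle dose replicate 3). The day 3 value of miR-96-5p was -0.48 to 0.11 with single libraries left out (above 0 without middle dose replicate 3) and 0.11 without the 3 outlying libraries. The cause of these changes was not tested. Of the other values for single miRNAs, 4211 were on the same side of the threshold, 498 were weaker and 42 stronger.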
